A study of Mus musculus with 6 samples.

Results

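The genes described here make, break down, bind and sense retinoic acid, and they were read in the tail tissue of mouse embryos that were wild type or mutant for Dll3. They were chosen by name: every probe set that the platform annotation gives to exactly 1 of the symbols Aldh1a2, Rdh10, Cyp26a1, Cyp26b1, Crabp1, Crabp2, Rara, Rarb and Rarg, Affymetrix control probe sets left out. This gave 9 probe sets of 8 genes, out of 22626 probe sets in all. Rarg has 2 of them, and Cyp26b1 was not analysed here. Total RNA was taken at 9.5 days post coitum from the level of the presomitic mesoderm, cut off behind the last somite formed, with the allantois removed and every germ layer included, and it was hybridised to Affymetrix MOE430A arrays. The groups were 3 pools of wild-type embryos on a c57bl/6 strain and 3 pools of embryos on the same strain homozygous for the tm1Rbe allele of Dll3, also called neo. The pools are biological replicates, and the number of embryos in each is not given in the sources used.

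Retinoic acid is a signal made from vitamin A. Rdh10 oxidises retinol to retinaldehyde, and Aldh1a2 oxidises retinaldehyde to retinoic acid in the somites and the anterior presomitic mesoderm, while Cyp26a1 destroys it in the tail bud, so that the signal falls towards the tail end of the embryo. Crabp1 and Crabp2 carry retinoic acid inside cells. The receptors Rara, Rarb and Rarg bind DNA with retinoid X receptors at paired hexamers, and in the body axis retinoic acid opposes the FGF and Wnt signals of the tail bud. Dll3 is an atypical Notch ligand that the segmentation clock needs.

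Of the members, Rarb and Cyp26a1 are the textbook cases of genes that retinoic acid itself switches on, and their promoters are shown because both hold the receptor's repeat. The sequences come from RefSeq on build GRCm38.p6, run from 250 bases before to 50 bases after the start of the gene, 5′ to 3′ on the gene's own strand, and the capitals mark the repeated hexamers.
Rarb, chr14:16575427-16575726, minus strand: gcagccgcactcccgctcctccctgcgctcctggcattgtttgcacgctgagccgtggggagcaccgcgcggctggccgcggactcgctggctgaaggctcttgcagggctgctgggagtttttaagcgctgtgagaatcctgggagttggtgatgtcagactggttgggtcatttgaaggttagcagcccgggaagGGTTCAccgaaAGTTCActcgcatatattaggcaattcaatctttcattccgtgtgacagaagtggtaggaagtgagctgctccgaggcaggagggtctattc
Cyp26a1, chr19:37697558-37697857, plus strand: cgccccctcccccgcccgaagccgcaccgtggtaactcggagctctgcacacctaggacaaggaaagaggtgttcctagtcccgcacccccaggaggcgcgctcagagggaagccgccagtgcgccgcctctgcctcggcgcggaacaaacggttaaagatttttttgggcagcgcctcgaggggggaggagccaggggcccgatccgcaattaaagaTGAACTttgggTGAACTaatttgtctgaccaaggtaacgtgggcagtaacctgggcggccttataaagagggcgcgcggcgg
The motif searched was DR5, a pair of hexamers in the same orientation with 5 bases between them, where a hexamer may be AGGTCA, the form AGTTCA, the form GGGTCA or the form GGTTCA, on both strands. In Rarb it reads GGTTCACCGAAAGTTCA and lies from 53 to 37 bases before the start. In Cyp26a1 it reads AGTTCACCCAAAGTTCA on the strand opposite to the gene and lies from 32 to 16 bases before the start. Of 32851 promoters of this length, 32, or 0.0974%, held a DR5 repeat, and 43.7% held at least 1 of the hexamers, which overlap the repeat by construction. The same repeat with 2 bases between the hexamers, DR2, was in 0.268% of promoters and in 0 of the 11 promoters listed for members. Those 11 belong to 7 members, Rdh10 and Crabp2 being the others, and 2 of them held DR5. A match of letters is a description of the sequence and shows no binding.

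Values are linear ratios: each probe set was divided by the median of its 6 arrays, which allows pools to be compared within a probe set but no level to be read. Array medians lay between 0.985 and 1.01. Genotype differences are given as log2 of mutant over wild type, from limma over all 22626 probe sets, with Benjamini-Hochberg adjustment. The number of arrays limits the precision. Dll3 was lower in every mutant pool (1.46, 1.63 and 2.01 against 0.480, 0.476 and 0.537) and was the 1 probe set that passed (limma adjusted p = 0.00691), a call lost on dropping wild-type pool 2 or any 1 mutant pool (adjusted p from 0.0627 to 0.0924). Where its probe set lies relative to the altered stretch is not known here. No member passed: 0 of 9 were past an adjusted p of 0.05, beside 0.00442% of all probe sets, and each had an adjusted p of 0.9999. At an unadjusted p under 0.05 there was 1 member of 9, beside 1.16% of all probe sets. Values of the genotypes did not overlap for 1 member, Rarb, beside 5.03% of all probe sets. The members are therefore given by their values and intervals, and the intervals are not adjusted for the number of probe sets.

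The synthesis genes differed in how they ran across pools. Aldh1a2, the enzyme that makes retinoic acid, had ratios of 0.731, 1.11 and 0.893 in wild-type pools 1 to 3 against 1.04, 1.30 and 0.957 in mutant pools 1 to 3. Mutant pool 2 was highest and wild-type pool 1 lowest, and the genotypes overlapped because wild-type pool 2 lay above mutant pools 1 and 3. The means were 0.912 ± 0.191 and 1.10 ± 0.180 (SD, n = 3 each), a log2 difference of 0.28 (SE 0.17, 95% interval -0.11 to 0.67). Dropping wild-type pool 1 gave 0.13, dropping mutant pool 2 gave 0.15, and dropping wild-type pool 2 gave 0.43. Rdh10, which supplies the retinaldehyde, had ratios of 0.795, 0.984 and 1.30 (wild type) against 0.963, 1.14 and 1.02 (mutant). All 3 mutant values fell inside the wild-type range. Its log2 difference was 0.04 (SE 0.17, 95% interval -0.34 to 0.43), and its sign turned when wild-type pool 1 (-0.12) or mutant pool 2 (-0.02) was left out.

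Breakdown was read by Cyp26a1 alone. This cytochrome P450 had ratios of 1.17, 0.948 and 1.64 in wild-type pools 1 to 3 against 1.03, 0.966 and 0.818 in mutant pools 1 to 3. Wild-type pool 3 stood far above the rest, mutant pool 3 was lowest, and wild-type pool 2 lay below mutant pools 1 and 2. The means were 1.25 ± 0.356 and 0.939 ± 0.110 (SD, n = 3 each). The log2 difference was -0.39 (SE 0.19, 95% interval -0.82 to 0.05), the most negative of the 9, and it was -0.17 without wild-type pool 3. In size it was the largest among the members, ahead of Rarb, and the SD of the wild-type pools exceeded the difference between the means.

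**Figure D1:**
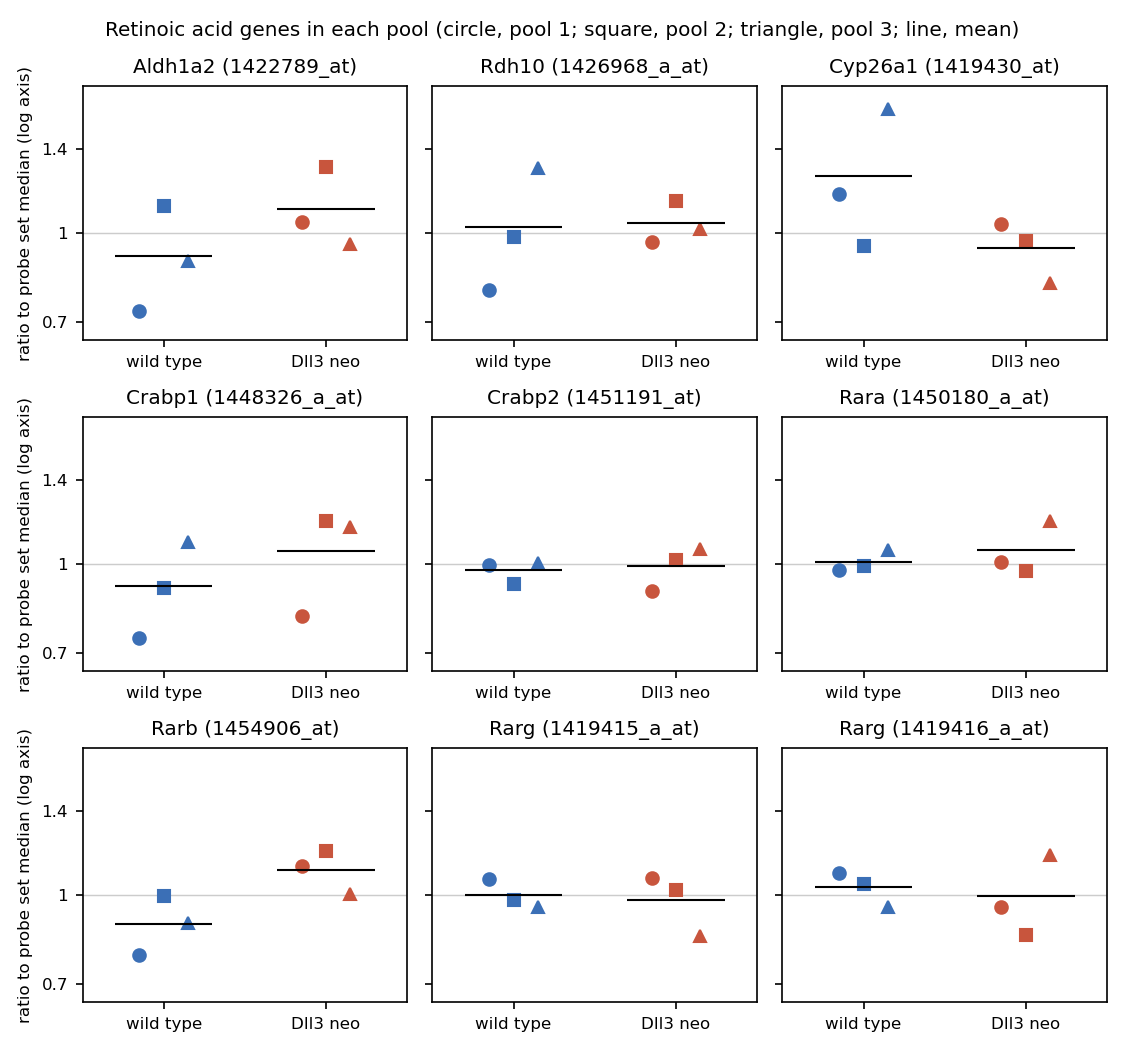
Ratio of each member probe set to the median of its 6 arrays (log axis) in 3 wild-type and 3 Dll3 neo pools, with a line at each mean. Rarb is the panel in which all mutant points lie above all wild-type points, by a gap from 0.995 to 1.005, and Cyp26a1 reaches 1.64 in wild-type pool 3.

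Synthesis and breakdown were also set against each other within each pool. The log2 ratio of Aldh1a2 minus that of Cyp26a1 was -0.68, 0.23 and -0.88 in wild-type pools 1 to 3, against 0.01, 0.43 and 0.23 in mutant pools 1 to 3. Wild-type pools 1 and 3 lay below all the others, while wild-type pool 2 lay within the mutant range, level with mutant pool 3. The means were -0.44 ± 0.59 and 0.22 ± 0.21 (SD, n = 3 each), 0.67 apart. They were 0.45 apart without wild-type pool 3 and 1.003 apart without wild-type pool 2. With 3 against 3 pools an exact permutation test cannot go below 0.10, so none was used.

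The binding proteins showed no separation of the genotypes. Crabp1 had ratios of 0.744, 0.907 and 1.09 (wild type) against 0.813, 1.19 and 1.16 (mutant), with pool 1 the lowest in each genotype. Its log2 difference was 0.20 (SE 0.18, 95% interval -0.22 to 0.61). Leaving out 1 pool gave values from 0.06 (wild-type pool 1 left out) to 0.37 (mutant pool 1 left out), with 0.34 for wild-type pool 3, 0.10 for mutant pool 2 and 0.12 for mutant pool 3. Crabp2, which hands retinoic acid to the receptors in the nucleus, had 0.997, 0.921 and 1.003 (wild type) against 0.898, 1.02 and 1.06 (mutant). It was the steadiest member, its highest pool being 1.18-fold its lowest. The log2 difference was 0.02 (SE 0.11, 95% interval -0.23 to 0.28), and it turned negative when wild-type pool 2 (-0.02) or mutant pool 3 (-0.03) was left out.

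Among the receptors, Rarb stood apart from Rara and Rarg. Rarb had ratios of 0.787, 0.995 and 0.892 in wild-type pools 1 to 3 against 1.12, 1.19 and 1.005 in mutant pools 1 to 3. Every mutant pool was above every wild-type pool, with mutant pool 3 and wild-type pool 2 almost level. The means were 0.891 ± 0.104 and 1.11 ± 0.0936 (SD, n = 3 each), a log2 difference of 0.31 (SE 0.13, 95% interval 0.03 to 0.60, unadjusted p = 0.0351 and adjusted p = 0.9999 in limma over all probe sets). By p it ranked 146 of 22626 probe sets. Leaving out 1 pool gave log2 differences from 0.23 to 0.40. Non-overlap was seen in 3.05% of all probe sets with mutant values higher and in 1.99% with mutant values lower.

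Rara, the most widely expressed of the receptors, had 0.975, 0.991 and 1.06 (wild type) against 1.01, 0.971 and 1.19 (mutant). Its highest value was in mutant pool 3, and without that pool its log2 difference of 0.06 (SE 0.12, 95% interval -0.20 to 0.33) became -0.02. Rarg, the receptor of the tail bud and of cartilage precursors, was read by 2 probe sets. Probe set 1419415_a_at gave 1.07, 0.979 and 0.953 (wild type) against 1.07, 1.02 and 0.848 (mutant). Probe set 1419416_a_at gave 1.09, 1.05 and 0.954 (wild type) against 0.952, 0.853 and 1.18 (mutant). The probe sets disagreed most in mutant pool 3, which was the lowest of 6 by the first and the highest by the second. Their log2 differences were -0.03 (SE 0.12, 95% interval -0.31 to 0.25) and -0.06 (SE 0.14, 95% interval -0.37 to 0.25). The first turned positive when wild-type pool 1 (0.01) or mutant pool 3 (0.07) was left out, and the second when mutant pool 2 was (0.04).

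**Figure D2:**
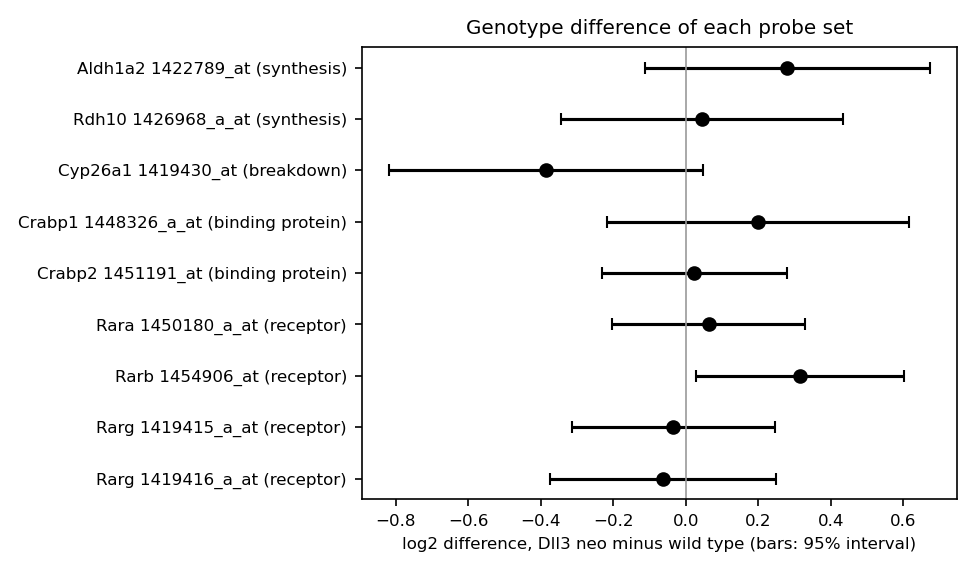
Log2 difference between Dll3 neo and wild-type pools for each member probe set (point) with the 95% interval from limma (bar, not adjusted for the number of probe sets). The interval of Rarb, 0.03 to 0.60, lies above 0, and the intervals of the other 8 probe sets include 0.

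As a set the members were 6 higher and 3 lower by sign, beside 49.1% higher and 50.9% lower over all probe sets. Their median log2 difference was 0.04, beside -0.0021 over all probe sets, and the median size of the difference was 0.06, beside 0.07. By this median the members differed between genotypes about as much as a typical probe set, but they were split. In size Cyp26a1 (0.39), Rarb (0.31), Aldh1a2 (0.28) and Crabp1 (0.20) lay above the typical value, and the remaining member probe sets were at 0.06 or below. Between single pools several of them ran wider: the highest pool was 2.01-fold the lowest for Cyp26a1, a range above that of 96.6% of probe sets, 1.78-fold for Aldh1a2 (93.2%), 1.63-fold for Rdh10 (87.6%) and 1.59-fold for Crabp1 (85.4%). Crabp2, Rara and probe set 1419415_a_at of Rarg were below the middle of that ranking (13.1%, 22.1% and 31.3%). Wild-type pool 1 held the lowest value of 4 of the 9 probe sets, those of Aldh1a2, Rdh10, Crabp1 and Rarb, and of 21.2% of all probe sets.

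Compared with each other over the 6 pools, Aldh1a2 and Rarb were the closest of the 36 pairs of member probe sets, with a mean absolute difference of log2 ratios of 0.10. Pool by pool Aldh1a2 minus Rarb ran from -0.11 to 0.16. Aldh1a2 and Cyp26a1 were the farthest pair, with 0.41, and Crabp1 and Cyp26a1 followed, also with 0.41. Rarb and Cyp26a1, which share the DR5 repeat, were 0.37 apart, at place 34 of the 36. Places 34 to 36 all held Cyp26a1, the member with the widest range over the pools, and the measure grows with such ranges. These values describe 6 arrays that all genes share.

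The same measure named the probe sets most like each of these genes, among 7328 probe sets of single genes whose log2 ratios spanned at least 0.5. Those nearest to Aldh1a2 were of Plxnd1, a semaphorin receptor (mean absolute difference 0.06), Meox1, a homeobox gene of the somite (0.06), the receptor gene Igf2r (0.06), Pcolce, which acts on procollagen (0.08), and Emcn, an endothelial sialomucin (0.08). Rarb came 15th in that order. Nearest to Cyp26a1 were Orc4, of the replication origin complex (0.06), both probe sets of the cytokine signalling inhibitor Socs2 (0.07 each), the mitochondrial import gene Tomm70a (0.08) and the DNA methyltransferase gene Dnmt3b (0.09), all with their highest ratio in wild-type pool 3. Nearest to Rarb were Smarcd3, a chromatin remodelling subunit (0.05), Nrep (0.05), Itih5 (0.06), Sparc, a matrix glycoprotein (0.06), and the centromere protein gene Cenpb (0.06).

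Markers of cell types of the embryo were set beside these genes, and 0 of their probe sets passed the test (limma adjusted p = 0.9999 for each). Formed somites lie in front of the cut described above, so the lists are not all of the dissected level. In bulk RNA, fewer cells of a type and less RNA per cell cannot be told apart. Of 10 somite probe sets, 9 had the higher sign in the mutant (median difference 0.11), and their median log2 ratio was -0.32, 0.03 and -0.18 in wild-type pools 1 to 3 against -0.01, 0.16 and -0.11 in mutant pools 1 to 3. The log2 ratio of Aldh1a2 was -0.45, 0.15 and -0.16 in those wild-type pools and 0.06, 0.38 and -0.06 in those mutant pools, which puts the 6 pools in the same order. For Rarb it was -0.35, -0.01 and -0.16, then 0.17, 0.25 and 0.01, in another pool order, with wild-type pool 2 below every mutant pool. Of 12 probe sets of the posterior presomitic mesoderm and tail bud, 11 were lower by sign (median -0.24), with 2 of the 12, Tbx6 (-0.39) and Hes7 (-0.43), not overlapping between genotypes, beside 5.03% of all probe sets. Their pool medians were 0.12, -0.03 and 0.29 (wild type) against -0.17, -0.24 and 0.11 (mutant). Cyp26a1, at 0.23, -0.08 and 0.72 and then 0.05, -0.05 and -0.29, shared with them the high wild-type pool 3, but in mutant pool 3 it was at its lowest where they were at their highest for that genotype. The part of these cell types in the members' values was not tested.

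**Figure D3:**
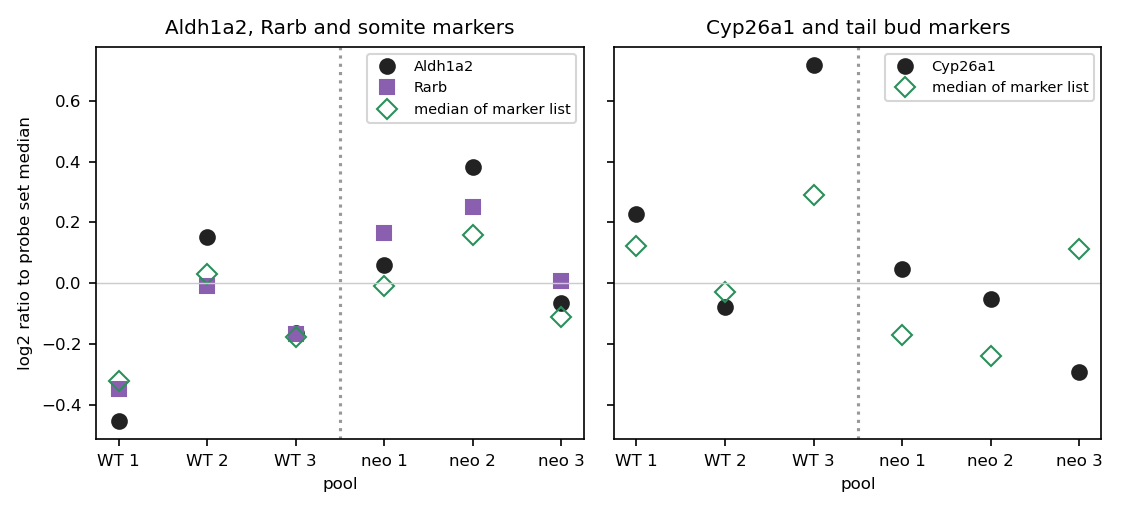
Log2 ratio in each pool of Aldh1a2 and Rarb with the median of the somite markers (left), and of Cyp26a1 with the median of the posterior presomitic mesoderm and tail bud markers (right); the dotted line separates genotypes. Aldh1a2 runs from -0.45 to 0.38 in the same pool order as the somite median, and Cyp26a1 is at 0.72 in wild-type pool 3 and -0.29 in mutant pool 3.

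The other marker lists were read in the same way. Genotypes did not overlap for 4 of 18 lateral plate and limb, 3 of 15 yolk sac, 2 of 7 gut endoderm, 2 of 13 neural tube and 1 of 7 endothelium probe sets, and for 0 in the somite and the remaining lists. The share over all probe sets was 5.03%, and several probe sets of 1 gene are counted separately in these lists. Lateral plate and limb probe sets were higher by sign in 17 of 18 (median 0.15), endothelium in 6 of 7 (0.18) and visceral yolk sac endoderm in 13 of 15 (0.18). Lateral plate and limb pool medians were -0.04, -0.0029 and -0.19 (wild type) against 0.16, -0.0043 and 0.03 (mutant). Those of the yolk sac were -0.0014, -0.14 and -0.24 (wild type) against 0.13, -0.05 and -0.03 (mutant). Both lists were highest in mutant pool 1 and lowest in wild-type pool 3. Endothelial medians were -0.14, 0.04 and -0.04 (wild type) against 0.06, 0.33 and -0.03 (mutant). They were lowest in wild-type pool 1 and highest in mutant pool 2, as for Aldh1a2, Rarb and the somite list. Blood (4 of 6 higher, median 0.01), neural tube (6 of 13, -0.0018), surface ectoderm (8 of 14, 0.02), gut endoderm (3 of 7, -0.05) and anterior presomitic mesoderm (2 of 6, -0.03) lay nearer to 0. Heart muscle probe sets had a pool median of 2.21 in mutant pool 1 and between -0.34 and -0.0043 in the others. Dividing by the median leaves no absolute level, so the labelled tissue could not be checked by the presence of its markers, and no probe set of the posterior list had a median below 0.99, where a floor appears to lie. Those of Meox2 in the somite list, and 3 of the 9 heart muscle and 5 of the 15 yolk sac probe sets, did.

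Other genes of the pathway were compared in 4 parts, 54 of 65 genes being measured by 88 probe sets. Of these, 0 passed in either direction (limma adjusted p = 0.9999 for each, 1 at an unadjusted p under 0.05), 51 were higher and 37 lower by sign, and 5, or 5.68%, did not overlap between genotypes, beside 5.03% of all probe sets. The median difference of 0.02 had no settled sign: on leaving out 1 pool it ran from -0.010 (mutant pool 2) to 0.031 (wild-type pool 1), and it was -0.0022 without wild-type pool 3. The 34 probe sets of 24 genes that handle retinoids were 19 higher and 15 lower by sign. Their median of 0.01 turned to -0.01 without wild-type pool 3, to -0.0074 without mutant pool 2 and to -4.90e-04 with quantile normalization. Among them Rdh12, a retinaldehyde reductase, had 0.955, 0.943 and 0.782 (wild type) against 1.05, 1.04 and 1.06 (mutant), a log2 difference of 0.24, and -0.06 by its other probe set. Aldh1a3, another retinaldehyde dehydrogenase, had 0.12 without overlap and -0.09 and 0.04 by its other probe sets.

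The 17 probe sets of 11 nuclear partners and cofactors were 12 higher and 5 lower by sign. Their median of 0.09 became -0.01 on leaving out mutant pool 2 and 0.04 on leaving out mutant pool 3 or wild-type pool 2. The orphan receptor gene Nr2f2 had the smallest p of the pathway, with 0.738, 0.895 and 0.916 (wild type) against 1.08, 1.19 and 1.15 (mutant) by probe set 1416159_at. Its log2 difference was 0.43 (SE 0.12, unadjusted p = 0.00615 in limma), and its other probe sets gave 0.28 and 0.25 with overlapping genotypes. The retinoid X receptor genes, partners of the members, had log2 differences of 0.10 and 0.09 for Rxra, -0.08 for Rxrb and -0.17 for Rxrg.

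The 24 probe sets of 12 genes known to respond to retinoic acid were 16 higher and 8 lower by sign, and many of them are of Tgm2 or Pax6. Their median was 0.03, or 0.06 without wild-type pool 2 or mutant pool 3 and 0.02 without wild-type pool 3. Olig2, a factor of motor neuron progenitors, was the 1 of the 24 without overlap, or 4.17%, beside 5.03% of all probe sets. Its ratios were 0.987, 0.979 and 0.954 (wild type) against 1.09, 1.01 and 1.15 (mutant), a log2 difference of 0.16. Besides Rarb and Cyp26a1, 4 of the 31 genes with a DR5 promoter were measured, by 6 probe sets, a set chosen after the values were seen. Their log2 differences ran from -0.18 for Tnfsf13b, a cytokine gene whose genotypes did not overlap either, with the mutant lower (1.18, 1.03 and 1.04 against 0.944, 0.941 and 0.968), to 0.12 for the platelet chemokine gene Ppbp, with a median of 0.02 and 0 past the threshold (limma, lowest unadjusted p = 0.124). Blvrb (0.04) and the embryonic globin gene Hbb-y (0.03, 0.02 and -0.0040) lay between them. Tnfsf13b was the 1 of these 6 probe sets without overlap, beside 5.03% of all probe sets. The 13 probe sets of 7 genes whose domain retinoic acid opposes were 9 lower and 4 higher by sign, with a median of -0.20 that was -0.07 without mutant pool 2. Lower in every probe set were Cdx2 (-0.75 and -0.63), Nkx1-2 (-0.36, -0.44 and -0.33), Cdx4 (-0.37), Fgf8 (-0.20) and Wnt3a (-0.15). Wnt8a was higher (0.09). Cdx2, Fgf8 and Wnt3a are also in the tail bud list above, so the 2 lists are not separate readings. Against the direction of that list, Fgf4, an FGF ligand, had no overlap by 1 of its 4 probe sets, with 0.970, 0.972 and 0.887 (wild type) against 1.06, 1.03 and 1.05 (mutant) (log2 difference 0.15, and 0.16, -0.04 and 0.02 by the others). This was the 1 of the 13 opposed probe sets without overlap, or 7.69%, beside 5.03% of all probe sets.

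**Figure D4:**
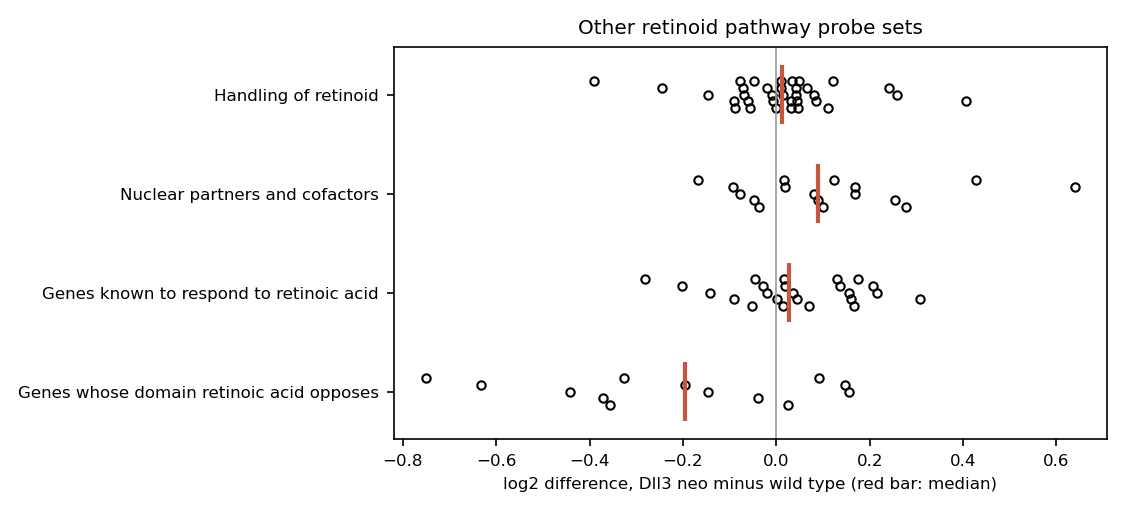
Log2 difference between Dll3 neo and wild-type pools for each probe set of the other retinoid pathway genes (circles, spread vertically for legibility only) in 4 parts, with the median of each part as a red bar. The medians are 0.01, 0.09, 0.03 and -0.20 from top to bottom, and 0 of the 88 probe sets passed the test.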

How the data were processed

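The single deposited table holds linear ratios for 22690 probe sets of 6 arrays. From the values, the authors divided each probe set by its own median over the arrays, since that median was within 0.0015 of 1 for 92.8%. For 1611 probe sets, and 0 members, it was under 0.99, which points to a floor in the division. Per the submitters' processing notes RMA and MAS5 were used, without role or order, so the absolute level, the normalization of the arrays and the background step are unknown. Samples were grouped by their titles.

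After 64 control probe sets were left out, log2 ratios of 22626 probe sets were fitted in limma 3.58.1 (R 4.3.3) by lmFit with genotype alone in the design, followed by eBayes and two-sided tests. Benjamini-Hochberg adjustment covered the whole table, the threshold was 0.05, and no further normalization was applied. The test was tried on simulated data with independent noise and with changes larger than those of the members. That trial therefore does not show how often differences of the members' size are found. Members and lists were chosen with earlier results of these data known. All members are given. In each part of the pathway list, up to 3 genes by smallest p without overlap are named. The Rxr genes, Tbx6, Hes7, the genes with a DR5 repeat and the opposed genes besides Fgf4 were added after their values were seen. For 20380 probe sets the platform annotation has 1 symbol, updated by Entrez ID through RefSeq. No coordinates are given for probe sets. Promoters were searched in Python 3.11.15, and plots were drawn with matplotlib 3.10.9. Alternatives were other normalizations, offsets, a filter on low medians, array weights, variance settings, a block for the replicate number and leaving out single pools. Medians of the parts of the pathway list under these alternatives were added after seeing the data.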

Additional observations from a re-analysis of the deposited data

How the results depend on the processing

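No member passed the threshold under any alternative tried, and the 14 settings beside the one reported gave 0 of 9 each time in limma. The count over all probe sets was 2 with quantile normalization (Dll3 and Hnrnpl), 4 with array weights (Dll3, Hnrnpl, Bcat2 and Nrarp), 0 with log2(value + 32) and between 0 and 1 when single pools were left out. The median log2 difference of the members was 0.078 with quantile normalization, 0.078 with array weights, 0.016 on log2(value + 1) and 7.71e-04 on log2(value + 32), offsets that shrink every log ratio near 1, and between 0.029 and 0.097 without single pools. Aldh1a2 minus Cyp26a1 differed between genotypes by 0.022 on log2(value + 32) and by 0.45 to 1.003 without single pools. Without single pools the log2 difference ran from -0.12 to 0.23 for Rdh10, from -0.026 to 0.093 for Crabp2, from -0.024 to 0.12 for Rara, and from -0.10 to 0.066 and -0.19 to 0.040 for the probe sets of Rarg, so their signs are not settled. Aldh1a2, Cyp26a1, Crabp1 and Rarb kept their sign in each setting, but array weights, whose estimation stopped before convergence and which rest on wild-type pool 2 (weight 83.9, the others at most 0.756), took Aldh1a2 to 8.41e-04, Cyp26a1 to -0.02 and Rarb to 0.16. With array weights the median of the opposed genes was -0.04, and that of the responsive genes 0.08. The cause of these shifts was not tested. With the replicate number as a block, 1 probe set passed (Dll3, limma adjusted p = 0.00713) and no member's call changed. The deviations of same-numbered pools correlated by 0.21, 0.02 and 0.17 across probe sets, and wild-type pool 2 correlated best with mutant pool 1 (0.08). Wild-type pool 1 gave -0.07 and -0.15 with mutant pools 2 and 3, and wild-type pool 3 gave -0.21 and 0.05 with mutant pools 1 and 2. Wild-type pools 1 and 3 thus correlated best with their own number. The numbers were not taken to pair the pools, and whether they mark a shared batch was not tested. Signal over background is unknown, so among probe sets with a median of 0.99 or more, all members included, dim ones could not be told from bright ones.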

Other observations

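Single pools stood far from the others for some pathway genes, which are named here after their values were seen and were not tested. In mutant pool 2 the tail bud homeobox gene Cdx2 was at 0.409 and 0.274 by its probe sets, while the other 5 pools lay between 0.871 and 1.59. Nkx1-2, a homeobox gene of the posterior neural and mesodermal progenitors, was at 0.570 and 0.590 in that pool by 2 of its probe sets and at 0.929 by the third. Dhrs4, a short-chain dehydrogenase gene that acts on retinoids, was at 0.383 and 0.575 there. The same pool held the highest ratios of Aldh1a2, Rarb and Crabp1, and the lowest of Rara and of probe set 1419416_a_at of Rarg. In wild-type pool 1 the orphan receptor gene Nr2f1 was at 0.452, where the other pools ran from 0.950 to 1.48. Nr2f2 was at 0.486 in wild-type pool 1 by probe set 1416158_at, and at 0.738 and 1.04 by its other probe sets. That pool also held the lowest ratios of Aldh1a2, Rdh10, Crabp1 and Rarb.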
